A study of Mus musculus with 12 samples.

Results

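Chromatin modifying and remodelling enzymes were followed through 12 mouse liver RNA libraries, as a set of 71 autosomal genes out of 24421 genes counted. The set was taken by gene name: the Kmt2, Setd, Kdm, Tet, Chd, Arid, Smarc and Kat families, leaving out Kdm5c, Kdm6a and Smarca1 on chromosome X and Kdm5d on chromosome Y. The members were selected on their names and with log2 fold changes of tumours against non-tumour liver known, among them the opposite tumour differences of Kmt2a and Tet3 in the 2 genotypes. Tumour against non-tumour values, and the difference between genotypes in that contrast, are therefore descriptions without a test. Of the 71, 68 had enough reads to be tested, and Arid3c, Kdm4d and the pseudogene Smarca5-ps did not.

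The livers came from C57BL/6 mice aged 15 months. All mice carried the knockout of Atg7, a gene needed to build autophagosomes, and 2 of the 4 groups also carried the knockout of Hmgb1, which encodes an abundant DNA-bending nuclear protein. The groups were Atg7KO non-tumour liver, Atg7KO tumours, Atg7KO; Hmgb1KO (DKO from here on) non-tumour liver and DKO tumours, with 3 libraries each. The labels name no wild-type group, no Cre driver and no sex, and do not state that each library is its own animal.

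Libraries held 18292190 to 32354958 reads. Reads of Atg7 (88 to 401 per library) and Hmgb1 (1732 to 4355) remained in every library, and Hmgb1 levels overlapped between genotypes in non-tumour liver (104 to 125 CPM in Atg7KO, 83.5 to 118 in DKO) but not in tumours (95.8 to 136, and 60.5 to 91.5), where CPM is a gene's reads scaled to library size with TMM factors. Hepatocyte markers were abundant in every library, with a summed level of 22700 to 101000 CPM over 5 genes. Every Atg7KO library held reads of Xist (1130 to 12216) and at most 2 of Y-linked genes, while every DKO library held at most 2 of Xist and 1898 to 4639 of Y-linked genes. Any difference between genotypes below cannot be told apart from that difference in sex chromosome transcripts. In bulk tissue, fewer cells of a type and less RNA per cell cannot be told apart either.

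DNA is wrapped around histones, and the enzymes of this set affect how open that packaging is. Methyltransferases of the KMT2 and SETD families write methyl groups on histone tails, KDM proteins erase them, and KAT proteins write acetyl groups. TET dioxygenases oxidise methylated cytosine in DNA, a step towards its removal. CHD, SWI/SNF and ISWI proteins use ATP to slide or evict nucleosomes, and many genes of these families are recurrently mutated in human liver cancer, ARID1A, ARID2 and the KMT2 genes among them.

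Kmt2a (NM_001081049, mm10 chromosome 9, 44803355 to 44881274, minus strand) encodes the founding KMT2 methyltransferase of histone H3 lysine 4, which keeps developmental genes active. Tet3 (NM_183138, mm10 chromosome 6, 83362374 to 83441678, minus strand) encodes the dioxygenase that acts on the paternal genome in the zygote. Both proteins carry a CXXC domain, a zinc finger that binds unmethylated CG dinucleotides, as do Kmt2b, Kdm2a, Kdm2b and Tet1. Their promoters are shown because these 2 genes varied together across the libraries, and those of Setd7 and Setd8, which were higher in Atg7KO tumours, stand beside them. Each is 300 bases from RefSeq on GRCm38.p6, the assembly also called mm10, from 250 bases before the start to 50 after it, with every CG in capitals.
Kmt2a promoter, chr9:44881240-44881539, minus strand: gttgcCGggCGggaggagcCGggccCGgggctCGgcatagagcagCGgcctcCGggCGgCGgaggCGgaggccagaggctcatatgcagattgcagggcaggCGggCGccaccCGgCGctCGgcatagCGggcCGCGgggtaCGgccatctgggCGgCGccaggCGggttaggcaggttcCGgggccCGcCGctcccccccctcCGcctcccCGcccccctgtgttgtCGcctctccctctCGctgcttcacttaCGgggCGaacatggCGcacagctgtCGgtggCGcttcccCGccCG
Tet3 promoter, chr6:83441629-83441928, minus strand: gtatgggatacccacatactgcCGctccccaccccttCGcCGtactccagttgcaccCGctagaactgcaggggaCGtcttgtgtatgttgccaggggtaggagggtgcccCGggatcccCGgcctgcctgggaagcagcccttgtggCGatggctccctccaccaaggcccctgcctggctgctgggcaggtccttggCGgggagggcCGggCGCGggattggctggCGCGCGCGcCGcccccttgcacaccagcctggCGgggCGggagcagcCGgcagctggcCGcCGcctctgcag
Setd7 promoter, chr3:51560774-51561073, minus strand: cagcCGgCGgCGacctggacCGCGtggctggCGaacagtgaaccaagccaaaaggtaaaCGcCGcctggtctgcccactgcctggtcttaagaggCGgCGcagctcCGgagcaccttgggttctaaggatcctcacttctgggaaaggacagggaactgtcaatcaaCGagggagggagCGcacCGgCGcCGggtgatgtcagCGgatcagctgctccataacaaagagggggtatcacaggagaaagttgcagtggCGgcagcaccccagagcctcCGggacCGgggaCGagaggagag
Setd8 promoter (Kmt5a in RefSeq), chr5:124439680-124439979, plus strand: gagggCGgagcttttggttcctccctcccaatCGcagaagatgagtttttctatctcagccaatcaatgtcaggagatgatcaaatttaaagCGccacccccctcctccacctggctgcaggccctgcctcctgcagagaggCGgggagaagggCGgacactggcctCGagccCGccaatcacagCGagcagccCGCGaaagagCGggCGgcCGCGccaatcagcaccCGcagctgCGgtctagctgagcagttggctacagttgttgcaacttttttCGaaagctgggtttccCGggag

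The only motif searched was CG, which reads the same on both strands. The Kmt2a window holds 36 and the Tet3 window 22, while the Setd7 window holds 21 and the Setd8 window 18. At least as many were found in 6.23%, 23.1%, 24.8% and 29.7% of the 32851 mouse promoter entries in the same order. Of the 71 members, 53 had an entry, and 47 of these began within 100 bases of the start in the count table. Their median was 27 CG against 7 over all entries, and 45 of the 47 held 10 or more, as did 43.5% of all entries. Windows rich in CG were found for members that were higher and members that were lower in Atg7KO tumours, and 94.6% of all entries hold at least 1.

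Kmt2a stood at 22.2, 31.7 and 26.5 CPM in Atg7KO non-tumour liver and at 14.3, 13.5 and 20.0 CPM in Atg7KO tumours. In DKO it stood at 10.4, 7.92 and 13.7 CPM in non-tumour liver and at 36.0, 27.4 and 17.7 CPM in tumours. Every Atg7KO tumour thus lay below, and every DKO tumour above, all non-tumour libraries of its own genotype. The group means were 26.8 ± 4.80, 15.9 ± 3.57, 10.7 ± 2.92 and 27.0 ± 9.19 CPM (SD, n = 3), so that Atg7KO non-tumour liver and DKO tumours were level. On the log2 scale the tumour difference was -0.75 (SE 0.29) in Atg7KO and 1.33 (SE 0.30) in DKO.

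Tet3 followed the same course. It stood at 13.4, 22.0 and 16.2 CPM in Atg7KO non-tumour liver and at 8.57, 9.26 and 11.2 CPM in Atg7KO tumours. In DKO it stood at 8.53, 6.42 and 8.48 CPM in non-tumour liver and at 24.8, 17.4 and 12.3 CPM in tumours. Neither genotype's tumours overlapped with its non-tumour libraries. The log2 difference was -0.83 (SE 0.28) in Atg7KO and 1.22 (SE 0.28) in DKO, and the gap between the 2 genotypes was 2.05 (SE 0.39) for Tet3 and 2.08 (SE 0.41) for Kmt2a. These are the values for which the pair was singled out.

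**Figure D1:**
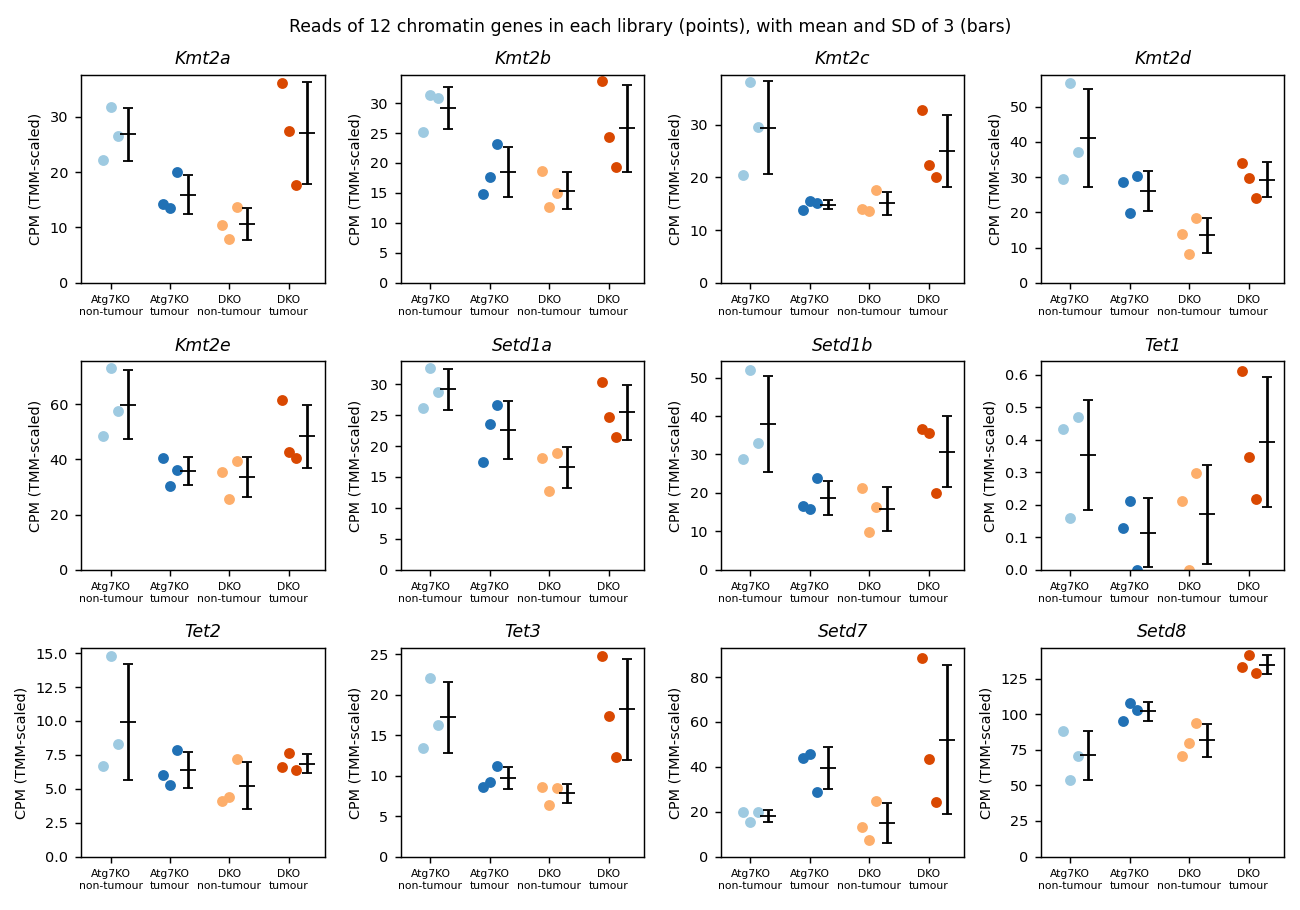
TMM-scaled CPM (y axis, from 0) of 12 members in each of the 12 libraries (points, 3 per group on the x axis), with the mean and SD of each group as bars. Kmt2a, Kmt2b, Kmt2c, Kmt2e and Tet3 are lower in tumours of Atg7KO and higher in tumours of DKO without overlap, whereas Setd8 is higher in tumours of both.

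Both transcripts are long, 16439 bases for Kmt2a and 10906 for Tet3, and fold changes varied with gene length in every comparison. Over all 14443 genes tested, log2 fold changes correlated with gene length, with a Spearman rho of -0.251 for tumours in Atg7KO and 0.495 for tumours in DKO, and of -0.474 and 0.356 for DKO against Atg7KO in non-tumour liver and in tumours. Over the 68 members rho was -0.535, 0.706, -0.746 and 0.499. The points share libraries, so these are descriptions. The tested members had a median length of 6206.5 bases against 2862 for all genes tested, and 21 of them were over 8000 bases.

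A length offset was therefore fitted beside the plain values: each library's deviation was smoothed against length over all genes and taken out. After it, rho over all genes was 0.000264 in Atg7KO and 0.00562 in DKO, and over the members -0.209 and 0.0597. Kmt2a then stood at 21.9, 22.8 and 21.0 CPM in Atg7KO non-tumour liver, 17.4, 15.3 and 21.1 CPM in Atg7KO tumours, 14.1, 14.2 and 14.6 CPM in DKO non-tumour liver and 24.1, 20.9 and 16.3 CPM in DKO tumours. One Atg7KO tumour now lay within the non-tumour range, while the DKO groups remained apart. Its log2 differences shrank to -0.29 (SE 0.18) and 0.51 (SE 0.18). Those of Tet3 shrank to -0.48 (SE 0.20) and 0.53 (SE 0.20), and its libraries still did not overlap in either genotype.

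**Figure D2:**
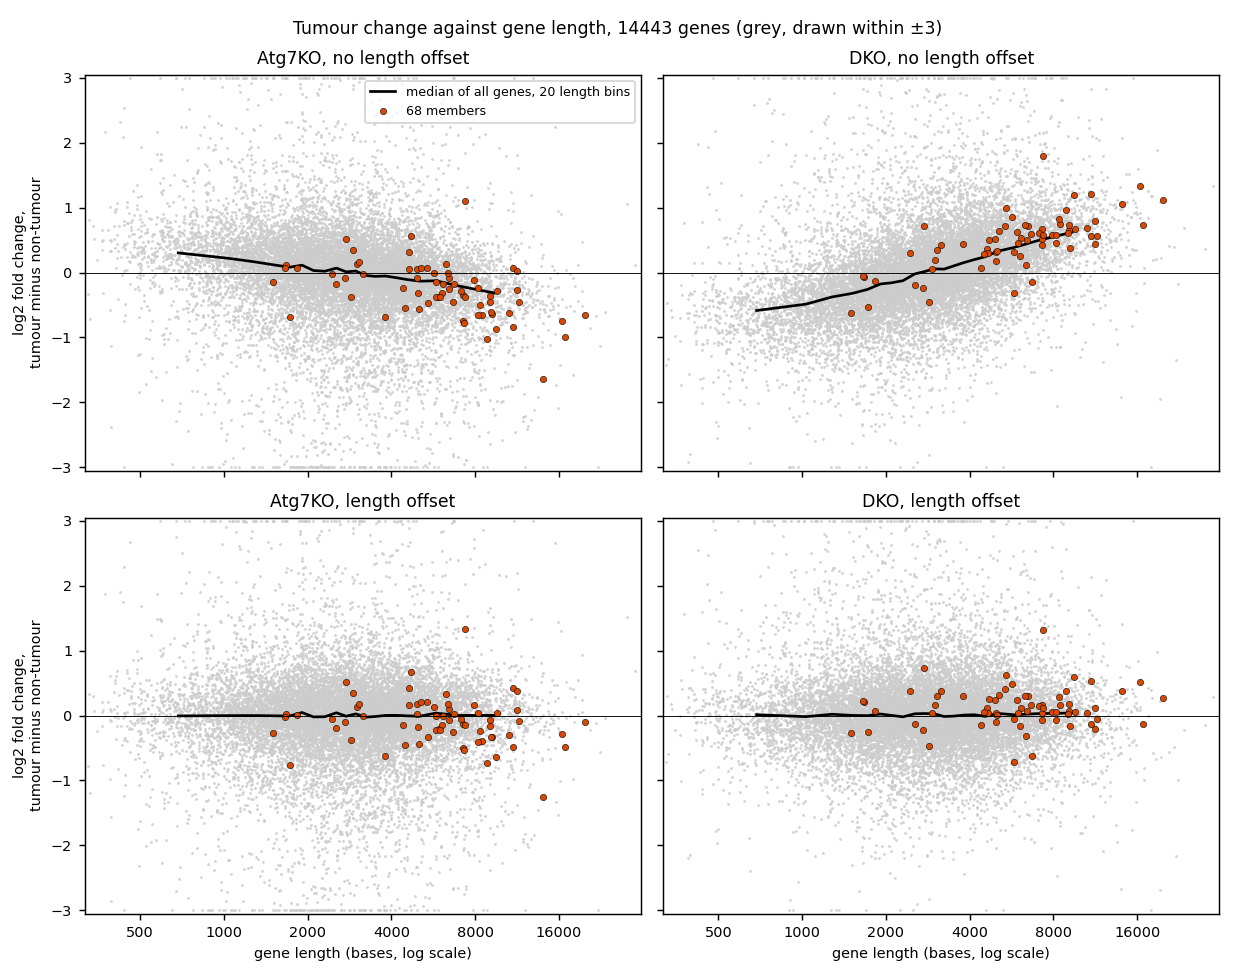
Log2 fold change of tumours against non-tumour liver (y axis) by gene length in bases (x axis, log scale) in Atg7KO (left) and DKO (right), without (top) and with (bottom) the length offset. Grey points are the 14443 genes tested, the black line their median in 20 length bins and orange points the 68 members; the line falls with length in Atg7KO and climbs with it in DKO without the offset, and lies near 0 with it.

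The libraries differed in how many of their reads came from long genes. Genes of 8000 bases or more took 2.80%, 3.17% and 3.02% of reads in Atg7KO non-tumour liver and 2.11%, 2.64% and 2.64% in Atg7KO tumours. They took 1.85%, 1.39% and 2.60% in DKO non-tumour liver and 4.55%, 3.41% and 3.04% in DKO tumours. The share was lower in every Atg7KO tumour and higher in every DKO tumour than in all non-tumour libraries of that genotype. What sets the share was not tested.

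Beside it, the median member deviated from its mean over the 12 libraries by -0.569 (log2) in DKO non-tumour replicate 2, which had the lowest share, and by 0.504 in DKO tumour replicate 1, which had the highest. Under the length offset those deviations were -0.149 and 0.166, and the 12 libraries lay between them. DKO tumour replicate 3, at 0.0117 without the offset, stayed close to the overall mean.

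**Figure D3:**
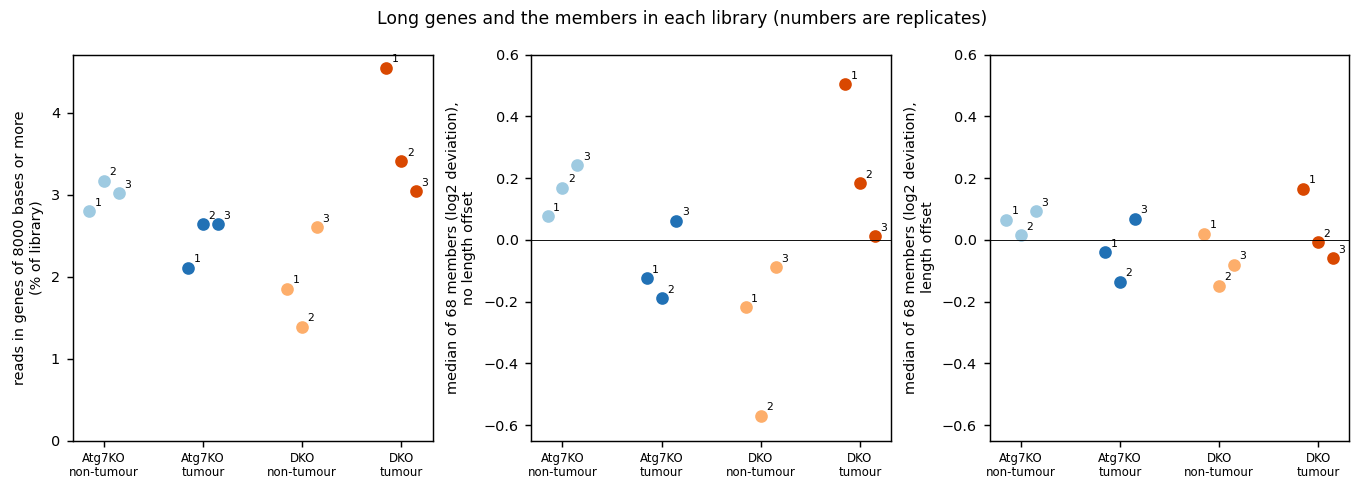
Per library (points, numbered by replicate, 3 per group): percent of reads in genes of 8000 bases or more (left), and the median log2 deviation of the 68 members from their mean over the 12 libraries without (middle) and with (right) the length offset. DKO non-tumour replicate 2 is lowest and DKO tumour replicate 1 highest in the left and middle panels, and the spread is narrower on the right.

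Across the set, 51 of 68 members were lower and 17 higher in Atg7KO tumours than in non-tumour liver, where 49.7% of all genes were higher. In DKO tumours 58 of 68 were higher, where 50.9% of all genes were. The median log2 fold change was -0.28 in Atg7KO, against -0.0038 over all genes tested, and 0.52 in DKO, against 0.013. The members' medians with the length offset were -0.093 and 0.093. In Atg7KO 22 members were lower and 4 higher in every tumour than in every non-tumour library, where 11.9% and 11.6% of all genes were. In DKO 31 were higher and 3 lower, where 13.2% and 13.8% of all genes were. With the offset these counts were 12 lower and 6 higher in Atg7KO (11.3% and 11.0% of all genes) and 9 higher and 3 lower in DKO (9.58% and 10.7%).

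In both genotypes together, 14 members lay below all non-tumour libraries in Atg7KO tumours and above all of them in DKO tumours, where 1.34% of all genes did. They were Arid1a, Arid2, Arid4a, Chd2, Chd6, Kat6b, Kdm2a, Kdm6b, Kmt2a, Kmt2b, Kmt2c, Kmt2e, Setd2 and Tet3, and the reverse held for 0 members (1.62% of all genes). Once length was taken into account Tet3 alone kept the pattern among the members, and 0.242% of all genes had it. Setd8 was higher and Smarcd2 lower in tumours of both genotypes without overlap, with and without the offset. Because the opposite course of Kmt2a and Tet3 was known when the set was drawn up, nothing is read from these counts.

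**Figure D4:**
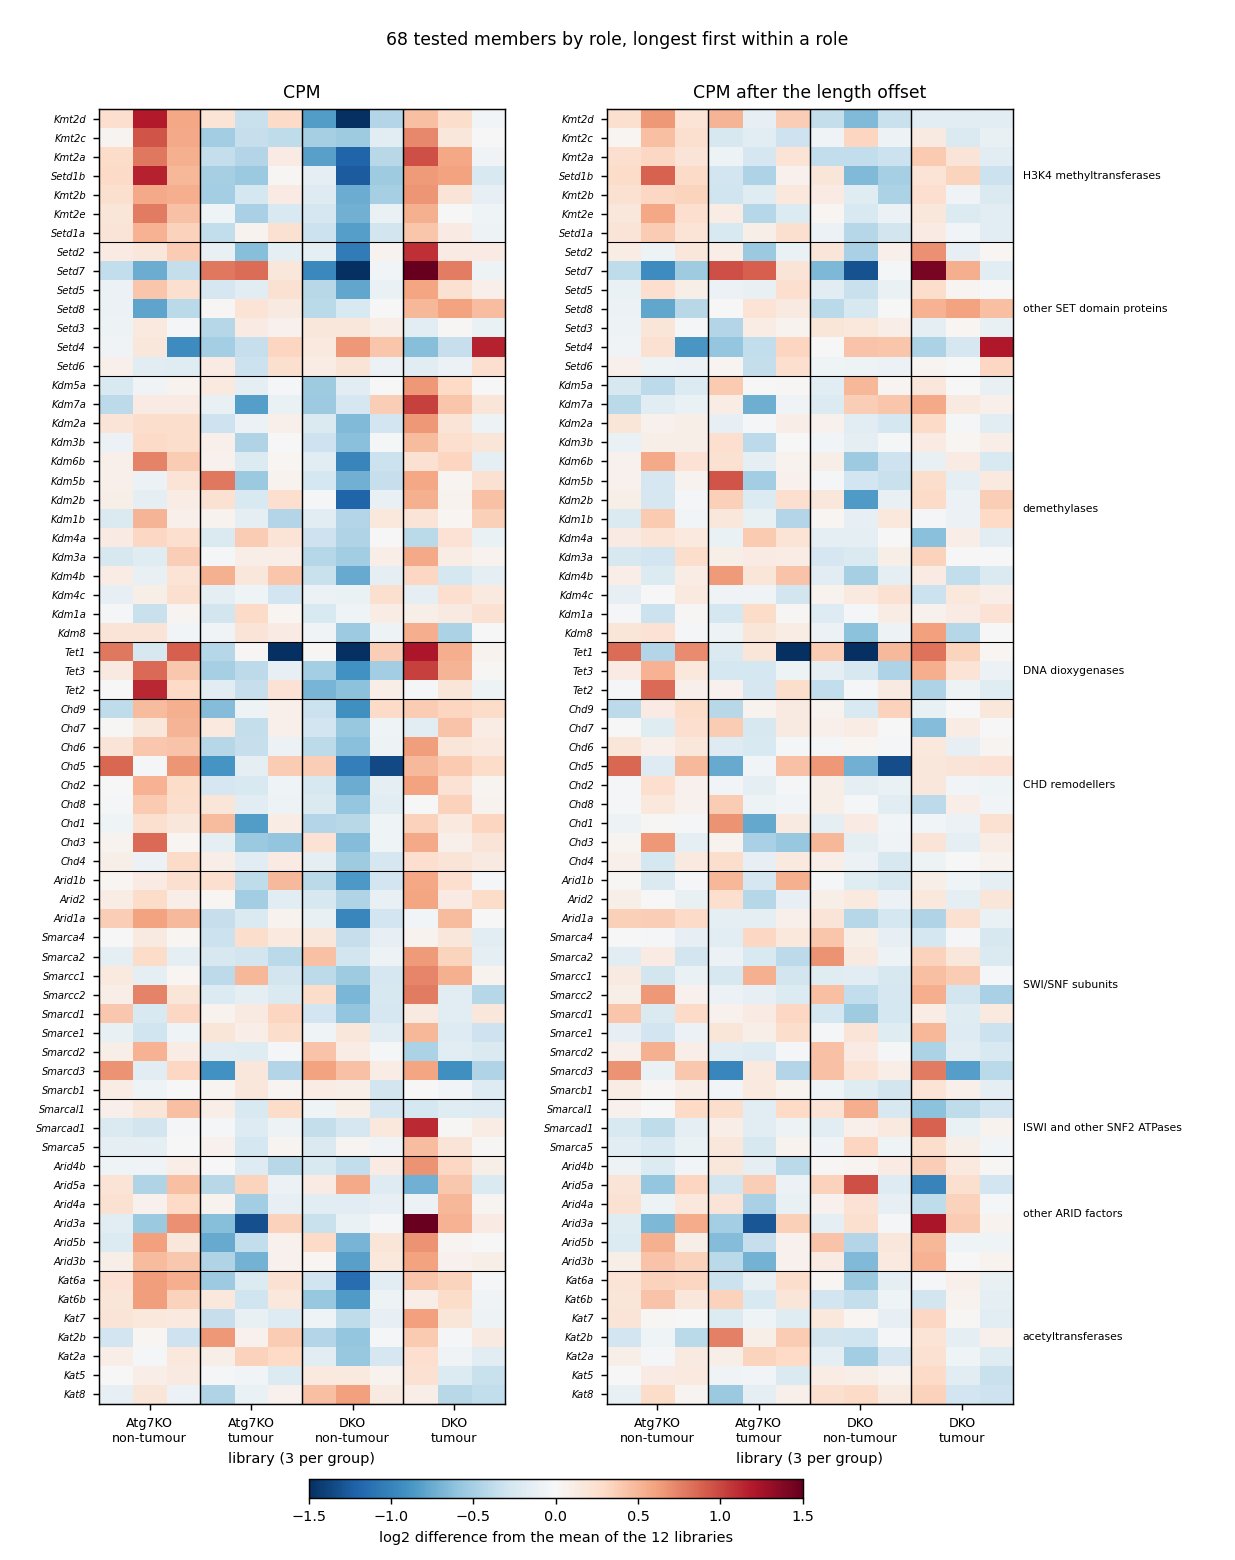
Log2 difference of each of the 68 tested members (rows, by role and then by length, longest at the top) from its mean over the 12 libraries (columns, 3 per group), from CPM plus 0.1 without (left) and with (right) the length offset; red is higher and blue lower. Rows of long genes such as Kmt2d and Kmt2a are blue in DKO non-tumour liver and red in DKO tumour replicates 1 and 2 on the left, and paler on the right.

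In the edgeR quasi-likelihood test with Benjamini-Hochberg adjustment over all 14443 genes, 0 members passed an adjusted p of 0.05 in any comparison, with or without the length offset. In the tumour comparisons 0.0% of all genes passed in either direction. The tumour contrast was in view when the set was drawn up, so its counts are a description from which nothing is read, and they leave out Kmt2a and Tet3. Of the other 66 members, 11 in Atg7KO and 34 in DKO stood at an unadjusted p under 0.05, where 16.8% and 22.5% of all genes did. DESeq2 listed 1 of them lower in Atg7KO (2.42% of all genes) and 9 higher in DKO (4.33%, with 3.68% called lower), while 0 were called in either by limma voom with quality weights, where 0.727% of all genes were called higher and 1.57% lower in Atg7KO and 0.0% in either direction in DKO. The spread between libraries was wide, with a common biological coefficient of variation of 0.3647.

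Levels between genes are compared in reads scaled to library size and gene length (RPKM), since long genes collect more reads. The most abundant members were Setd3, an actin histidine methyltransferase, at a mean over the 12 libraries of 38.6 RPKM, and Setd8, which writes the single methyl mark on histone H4 lysine 20, at 35.6 RPKM. Kat2b (PCAF, an acetyltransferase of histone H3) followed at 23.1 RPKM and Chd4, the motor of the NuRD complex, at 20.6 RPKM. Smarcd2, at 20.0 RPKM, led the SWI/SNF subunits. Kmt2a and Tet3 stood near the bottom of the expressed members, at 1.22 and 1.21 RPKM. Tet1 and Chd5 were close to absent, at 0.0183 and 0.0291 RPKM, and Arid3c had no read in any library.

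Kmt2a to Kmt2e, Setd1a and Setd1b were grouped as 7 methyltransferases of histone H3 lysine 4. Every one of these 7 was lower in Atg7KO tumours and higher in DKO tumours by its fitted value. Their medians were -0.74 and 0.74 on the log2 scale, and -0.39 and 0.24 under the length offset. Setd7, which also writes on that lysine, was put with the other SET domain proteins. By its fitted value it was higher in tumours of both genotypes (1.11 and 1.79). Kmt2c (NM_001081383), which with Kmt2d marks enhancers, stood at 20.5, 38.2 and 29.6 CPM in Atg7KO non-tumour liver, 13.8, 15.6 and 15.2 CPM in Atg7KO tumours, 14.0, 13.7 and 17.6 CPM in DKO non-tumour liver and 32.8, 22.3 and 20.0 CPM in DKO tumours. Neither pair of groups overlapped, and the log2 differences were -0.99 (SE 0.25) and 0.73 (SE 0.25). After the length offset that of DKO was -0.13 (SE 0.18), so its sign differs between the settings, while that of Atg7KO was -0.49 (SE 0.18).

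Kmt2b, the closest paralogue of Kmt2a, stood at 25.1, 31.4 and 30.9 CPM in Atg7KO non-tumour liver, 14.9, 17.7 and 23.1 CPM in Atg7KO tumours, 18.6, 12.6 and 15.0 CPM in DKO non-tumour liver and 33.7, 24.3 and 19.4 CPM in DKO tumours. Kmt2e, whose SET domain is not thought to write, was the most abundant of the 7 at 6.11 RPKM. It stood at 48.4, 73.2 and 57.7, at 40.6, 30.3 and 36.3, at 35.6, 25.7 and 39.6, and at 61.6, 42.8 and 40.6 CPM in the same order. Both genes were lower in every Atg7KO tumour and higher in every DKO tumour than in the liver of that genotype. Their log2 differences were -0.65 (SE 0.25) and 0.74 (SE 0.25) for Kmt2b and -0.74 (SE 0.24) and 0.52 (SE 0.24) for Kmt2e. The offset left -0.39 (SE 0.20) and 0.16 (SE 0.20) for Kmt2b and -0.51 (SE 0.18) and 0.04 (SE 0.18) for Kmt2e, and the DKO groups of both then overlapped.

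Kmt2d stood at 29.6, 56.7 and 37.0 CPM in Atg7KO non-tumour liver, 28.7, 19.7 and 30.2 CPM in Atg7KO tumours, 13.8, 8.26 and 18.3 CPM in DKO non-tumour liver and 33.9, 29.7 and 24.0 CPM in DKO tumours. Its Atg7KO groups overlapped and its DKO groups did not. Setd1b, a catalytic subunit of the SET1 complex that writes most trimethylation at promoters, stood at 28.7, 52.1 and 33.1 CPM, at 16.5, 15.9 and 23.8 CPM, at 21.2, 9.84 and 16.2 CPM and at 36.5, 35.5 and 20.0 CPM in the same order. It had the second lowest log2 fold change of all members in Atg7KO tumours, -1.02 (SE 0.34), which was -0.73 (SE 0.28) with the offset. Its paralogue Setd1a differed least in Atg7KO among the 7, by -0.37 (SE 0.22).

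All 3 Tet genes were lower in Atg7KO tumours and higher in DKO tumours by their fitted values, but Tet3 alone did so without overlap. Tet2, which is best known from mutations in blood cancers, stood at 6.68, 14.8 and 8.32 CPM in Atg7KO non-tumour liver, 6.01, 5.25 and 7.84 CPM in Atg7KO tumours, 4.12, 4.37 and 7.22 CPM in DKO non-tumour liver and 6.58, 7.66 and 6.35 CPM in DKO tumours. Both pairs of groups overlapped, and its DKO difference of 0.39 (SE 0.33) was -0.17 (SE 0.28) with the length offset. Tet1 had 0 to 21 reads per library, so its fitted differences of -1.63 (SE 0.97) and 1.06 (SE 0.93), the former being the lowest of all members, carry a large error.

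The other SET domain proteins went their own ways, and the set's 2 clearest exceptions are among them. Setd7, a monomethyltransferase of histone H3 lysine 4 and of many other proteins, stood at 19.7, 15.2 and 19.9 CPM in Atg7KO non-tumour liver and at 44.0, 45.5 and 28.7 CPM in Atg7KO tumours. In DKO it stood at 13.0, 7.24 and 24.7 CPM in non-tumour liver and at 88.7, 43.4 and 24.2 CPM in tumours. All Atg7KO tumours were above their non-tumour libraries, while in DKO tumour replicate 3 lay just under non-tumour replicate 3. The differences of 1.11 (SE 0.48) and 1.79 (SE 0.49) were the highest of all members in both genotypes, and 1.33 (SE 0.41) and 1.32 (SE 0.41) with the length offset. Without DKO tumour replicate 1 the DKO difference was 1.16.

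Setd8 (NM_030241, mm10 chromosome 5, 124439930 to 124462307) was measured at 88.3, 54.1 and 70.7 CPM in Atg7KO non-tumour liver and at 95.0, 108 and 103 CPM in Atg7KO tumours. In DKO it stood at 70.7, 80.1 and 94.2 CPM in non-tumour liver and at 133, 142 and 129 CPM in tumours. Tumours were above non-tumour liver without overlap in both genotypes, by 0.52 (SE 0.20) and 0.72 (SE 0.20) on the log2 scale. The length offset left them at 0.51 (SE 0.19) and 0.74 (SE 0.19), as the transcript, at 2738 bases, is close to the median length. Setd8 is a cell cycle gene, and 5 proliferation markers summed to 65.7 to 163 CPM in Atg7KO non-tumour liver and 116 to 131 CPM in its tumours, and to 46.6 to 66.2 and 69.3 to 105 CPM in DKO. They overlapped in Atg7KO and were higher in every tumour in DKO, and their part in the Setd8 difference was not tested.

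Setd2, which trimethylates histone H3 lysine 36 along transcribed genes, stood at 57.1, 58.8 and 68.0 CPM in Atg7KO non-tumour liver, 48.6, 33.6 and 47.9 CPM in Atg7KO tumours, 47.7, 25.3 and 54.3 CPM in DKO non-tumour liver and 112, 57.3 and 57.1 CPM in DKO tumours. It shows the opposite course without overlap, yet 2 of the 3 DKO tumours lay within a few CPM of the highest non-tumour library. Setd3 overlapped in Atg7KO, with a difference of -0.08 (SE 0.18). In DKO it was lower without overlap, at 118, 118 and 112 CPM in non-tumour liver and 92.7, 106 and 97.3 CPM in tumours, by -0.23 (SE 0.18), and by -0.22 (SE 0.17) with the offset. Setd4 and Setd6, both of short transcripts (1825 and 1669 bases), differed by 0.07 (SE 0.48) and 0.12 (SE 0.20) in Atg7KO and by -0.13 (SE 0.48) and -0.06 (SE 0.20) in DKO.

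**Figure D5:**
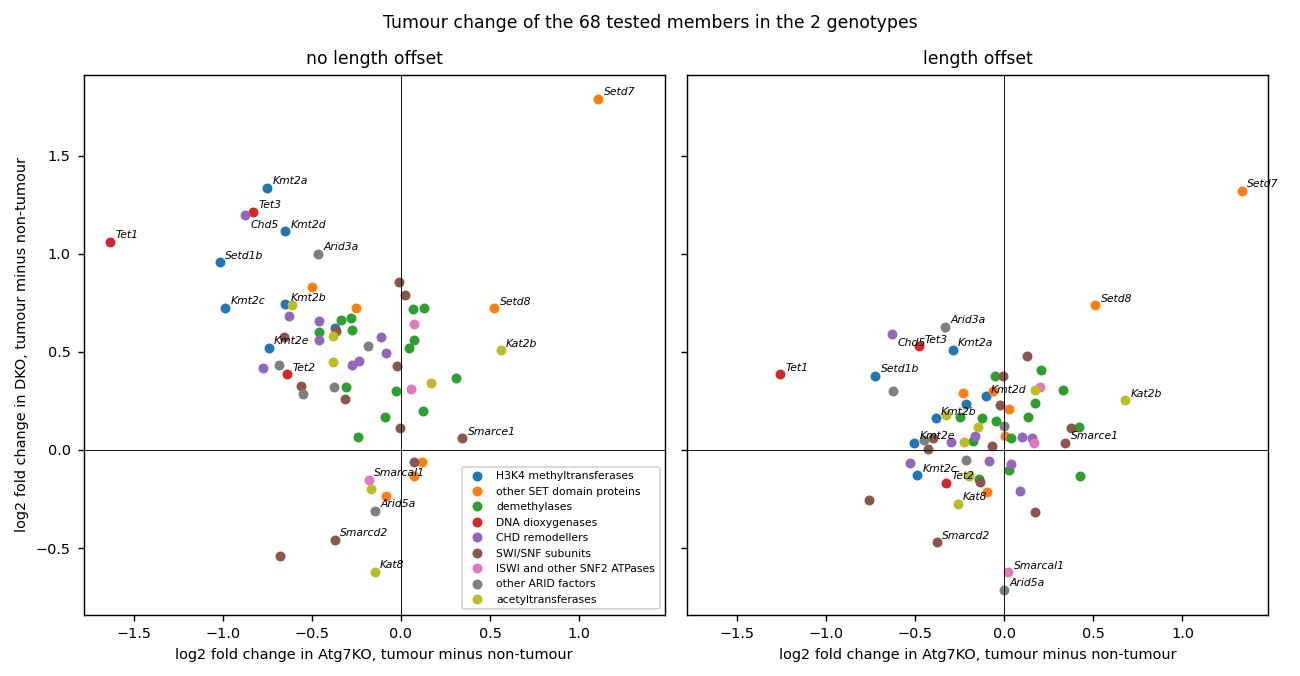
Log2 fold change of tumours against non-tumour liver in Atg7KO (x axis) and in DKO (y axis) for the 68 tested members (points, coloured by role), without (left) and with (right) the length offset. Kmt2a, Tet3 and their paralogues lie in the upper left without the offset and nearer to 0 with it, and Setd7 and Setd8 stay at the upper right.

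All 14 tested histone demethylases were higher in DKO tumours by their fitted values, with a median of 0.54 that was 0.16 with the length offset, and 8 of the 14 were lower in Atg7KO tumours, with a median of -0.057. Kdm2a, a CXXC protein that removes methyl groups from histone H3 lysine 36, was the most abundant at 10.4 RPKM. It stood at 84.0, 88.5 and 88.5 CPM in Atg7KO non-tumour liver, 59.4, 69.1 and 77.8 CPM in Atg7KO tumours, 63.3, 46.5 and 60.5 CPM in DKO non-tumour liver and 116, 84.0 and 69.9 CPM in DKO tumours. Kdm6b, which erases the Polycomb mark on histone H3 lysine 27, stood at 19.4, 30.9 and 24.0 CPM, at 19.2, 16.0 and 18.8 CPM, at 16.3, 9.22 and 14.7 CPM and at 21.6, 23.0 and 16.6 CPM in the same order. Both ran in opposite directions without overlap, and both overlapped once length was taken into account.

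Kdm4b, which acts on histone H3 lysine 9, was the demethylase with the highest difference in Atg7KO tumours. It stood at 16.9, 14.5 and 18.1 CPM in Atg7KO non-tumour liver, 22.8, 17.6 and 21.0 CPM in Atg7KO tumours, 12.4, 9.22 and 14.3 CPM in DKO non-tumour liver and 19.4, 13.0 and 14.1 CPM in DKO tumours. Its groups overlapped in both genotypes, with differences of 0.31 (SE 0.22) and 0.36 (SE 0.22). With the offset these were 0.42 (SE 0.19) and 0.12 (SE 0.19), and the DKO groups alone then overlapped. Kdm4d had 0 to 5 reads per library and was not tested.

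All 9 CHD remodellers were lower in Atg7KO tumours and higher in DKO tumours by their fitted values, with medians of -0.46 and 0.56. Under the offset 4 of the 9 were above 0 in Atg7KO and 5 in DKO, with medians of -0.086 and 0.039, and the family is long, with a median of 9071 bases. Chd6 stood at 18.4, 21.3 and 21.6 CPM in Atg7KO non-tumour liver, 11.9, 12.6 and 15.1 CPM in Atg7KO tumours, 12.2, 10.4 and 15.3 CPM in DKO non-tumour liver and 24.9, 18.2 and 17.8 CPM in DKO tumours. Neither pair overlapped, and the DKO difference of 0.68 (SE 0.21) was 0.04 (SE 0.14) with the offset. Chd4, the most abundant of the family, differed by -0.09 (SE 0.18) in Atg7KO and 0.50 (SE 0.18) in DKO, the latter 0.07 (SE 0.17) with the offset. Chd5 had 1 to 18 reads per library, and its differences of -0.87 (SE 0.72) and 1.20 (SE 0.77) are within 2 SE of 0.

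The 12 SWI/SNF subunits were more mixed, with medians of -0.17 in Atg7KO and 0.29 in DKO. Arid1a, the DNA-binding subunit of the BAF form of the complex, stood at 58.0, 68.4 and 63.1 CPM in Atg7KO non-tumour liver, 35.4, 38.5 and 46.4 CPM in Atg7KO tumours, 41.4, 22.7 and 36.9 CPM in DKO non-tumour liver and 43.5, 62.4 and 44.7 CPM in DKO tumours. It ran in opposite directions without overlap, by -0.66 (SE 0.23) and 0.57 (SE 0.23), of which -0.40 (SE 0.20) and 0.06 (SE 0.20) were left with the offset. The ATPases Smarca4 (BRG1) and Smarca2 (BRM) gave smaller values, and both overlapped in DKO: Smarca4 differed by -0.0043 (SE 0.20) in Atg7KO and 0.11 (SE 0.20) in DKO, and Smarca2 by -0.31 (SE 0.24) and 0.26 (SE 0.24). Their signs in DKO differ with the offset, at -0.32 (SE 0.18) for Smarca4 and -0.17 (SE 0.22) for Smarca2, and Smarca4 then stood at 0.17 (SE 0.18) and Smarca2 at -0.14 (SE 0.22) in Atg7KO.

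Smarcd2 was the exception on the lower side. It stood at 59.6, 80.6 and 60.8 CPM in Atg7KO non-tumour liver, 50.2, 49.6 and 55.6 CPM in Atg7KO tumours, 75.5, 60.8 and 55.1 CPM in DKO non-tumour liver and 40.5, 50.3 and 48.5 CPM in DKO tumours. Every tumour was below every non-tumour library of its genotype, by -0.37 (SE 0.18) and -0.46 (SE 0.18), and the offset left -0.38 (SE 0.18) and -0.47 (SE 0.18). Its paralogue Smarcd3, at 18 to 87 reads per library, differed by -0.68 (SE 0.48) and -0.54 (SE 0.48) with overlap. Smarce1 was higher without overlap in Atg7KO tumours, by 0.34 (SE 0.21), and near level in DKO, at 0.06 (SE 0.21).

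Of the 3 ISWI and related ATPases, Smarca5 (SNF2H), the most abundant at 11.0 RPKM, differed by 0.05 (SE 0.17) and 0.31 (SE 0.17) in the 2 genotypes. Smarcal1, which remodels stalled replication forks, differed by -0.18 (SE 0.19) and -0.15 (SE 0.19). With the length offset it stood at 0.02 (SE 0.22) in Atg7KO and at -0.62 (SE 0.22) in DKO, where every tumour then lay below every non-tumour library. All 6 tested ARID factors outside SWI/SNF were below 0 in Atg7KO tumours, with and without the offset (medians -0.42 and -0.27). Arid5b, the most abundant at 6.87 RPKM, differed by -0.55 (SE 0.32) and 0.29 (SE 0.32), and Arid5a, an RNA-binding protein of inflammatory transcripts, by -0.15 (SE 0.36) and -0.31 (SE 0.36).

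The 7 acetyltransferases were split. Kat2b stood at 86.3, 108 and 85.3 CPM in Atg7KO non-tumour liver, 166, 110 and 137 CPM in Atg7KO tumours, 77.7, 70.3 and 104 CPM in DKO non-tumour liver and 139, 104 and 116 CPM in DKO tumours. It was higher in tumours of both genotypes, by 0.56 (SE 0.22) without overlap in Atg7KO and by 0.51 (SE 0.22) with overlap in DKO, which became 0.68 (SE 0.20) and 0.25 (SE 0.19) with the offset. Kat8 (MOF), which acetylates histone H4 lysine 16, had the lowest difference of all members in DKO tumours, -0.62 (SE 0.22). It stood at 21.0, 23.6 and 16.9 CPM in DKO non-tumour liver and 16.5, 11.5 and 11.9 CPM in DKO tumours, apart by less than 1 CPM at the nearest pair. As the transcript is short, at 1503 bases, the offset moved that difference to -0.27 (SE 0.23), and the groups then overlapped.

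The comparison of genotypes within a tissue asks whether loss of Hmgb1 on top of Atg7 goes with other levels of these enzymes. It was not itself the contrast in which the set was chosen, but it rests on the same libraries. The gap known for Kmt2a and Tet3 is the genotype difference in tumours less that in non-tumour liver. The values of the pair here are thus tied to the choice, and both genes are in the counts of this paragraph. In non-tumour liver 55 of 68 members were lower and 13 higher in DKO than in Atg7KO, where 46.1% of all genes were higher, with a median log2 fold change of -0.41 against -0.049 over all genes, and 32 were lower and 0 higher without overlap, where 12.2% and 11.6% of all genes were. Under the length offset the median was -0.092 with 23 members higher (46.2% of all genes), and 17 were lower and 3 higher without overlap (9.37% and 9.57% of all genes).

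Of the 7 genes grouped as H3 lysine 4 methyltransferases, all were lower in every DKO than in every Atg7KO library of non-tumour liver. The same held for 12.2% of all genes, and for 245 of the 658 genes over 8000 bases. The median of the 7 was -0.96, and that of the 658 was -0.56. With the offset 6 of the 7 remained so (9.37% of all genes, and 75 of the 658), with a median of -0.52. Kmt2a is counted in both, and nothing is read from its place. Kmt2d had the lowest log2 fold change of all members, -1.60 (SE 0.32), with an edgeR adjusted p of 0.196 and, with the offset, -0.82 (SE 0.19) and 0.378. Its 3 DKO libraries at 13.8, 8.26 and 18.3 CPM all lay below the lowest Atg7KO library at 29.6 CPM. Setd1b differed by -1.26 (SE 0.34) and Setd1a by -0.82 (SE 0.22), both with an edgeR adjusted p of 0.226. The values for Kmt2a, -1.32 (SE 0.30), and Tet3, -1.14 (SE 0.28), are given without a test.

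No member passed in non-tumour liver by edgeR, where 0.00692% of all genes were called lower and 0.0485% higher. Kmt2a and Tet3 are left out of the counts that follow. Of the other 66 members, 24 stood at an unadjusted p under 0.05, where 15.1% of all genes did. DESeq2 called 5 of them lower, where it called 0.81% of all genes lower and 0.865% higher, and 8 were lower by limma voom with quality weights, where 1.54% of all genes were, and 2.34% higher. Arid1a, Kat6b, Kmt2c and Kmt2d were among both, with log2 fold changes of -0.896, -0.854, -0.951 and -1.60 in DESeq2 and adjusted p of 0.0366, 0.0495, 0.0495 and 0.00153. Neither tool was run with the length offset. Among all genes tested, 658 were over 8000 bases, and DESeq2 called 34 of these lower and 0 higher.

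A few members were not lower in DKO non-tumour liver. The highest differences were those of Setd4, at 0.63 (SE 0.48), Kat8, at 0.42 (SE 0.22), and Setd8, at 0.20 (SE 0.20), with edgeR adjusted p of 0.547, 0.387 and 0.642. Setd4 and Kat8 are short transcripts. With the offset Kdm5a, a demethylase of histone H3 lysine 4, was among the 3 members higher in DKO without overlap, at 0.43 (SE 0.19), where it had stood at -0.15 (SE 0.20) without it.

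In tumours the direction was the other way. There 53 of 68 members were higher in DKO than in Atg7KO, where 50.3% of all genes were, with a median of 0.33 against 0.0036 over all genes, and 18 were higher and 1 lower without overlap, where 9.95% and 10.3% of all genes were. With the length offset the median was 0.085, with 1 higher and 3 lower (8.09% and 8.5%). By edgeR 0 members were called, where 0.0346% of all genes were called higher and 0.0138% lower (0.0346% and 0.0208% with the offset), and 12 of the 66 besides Kmt2a and Tet3 stood at an unadjusted p under 0.05, where 16.6% of all genes did. DESeq2 and limma voom called 0 members, where DESeq2 called 1.91% of all genes higher and 1.95% lower and limma voom 0.0969% higher and 0.159% lower. Without DKO tumour replicate 1 the median was 0.19.

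Behind Tet1, at 1.77 (SE 0.97) on few reads, the highest difference between tumours was that of Arid3a, a DNA-binding factor first described in B cells, at 1.23 (SE 0.50, edgeR adjusted p = 0.263). Arid3a stood at 2.13, 1.30 and 4.33 CPM in Atg7KO tumours and 9.67, 4.89 and 3.69 CPM in DKO tumours. The groups overlapped, since the lowest DKO tumour lay below the highest Atg7KO tumour. Kdm7a, a demethylase of histone H3 lysines 9 and 27, did not overlap: it stood at 23.8, 14.5 and 24.0 CPM in Atg7KO tumours and 52.4, 34.4 and 29.2 CPM in DKO tumours, at 0.90 (SE 0.31, edgeR adjusted p = 0.213). With the offset it was 0.46 (SE 0.25) and the groups overlapped.

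Setd8 was the 1 member still higher in DKO tumours without overlap once length was taken into account, at 0.42 (SE 0.19, edgeR adjusted p = 0.339). Kmt2d reversed: at 0.16 (SE 0.31) without the offset it stood at -0.44 (SE 0.19) with it, and its 3 DKO tumours then lay below all Atg7KO tumours. Kdm4b and Smarcal1 were the other members lower in DKO tumours without overlap after the offset, both at -0.57 (SE 0.19 and 0.22). Kat2a and Kdm4a, at -0.23 (SE 0.18) and -0.22 (SE 0.21) without the offset, were also among the 5 lowest.

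The gap between genotypes in the tumour difference was above 0 for 58 of 68 members and 52.1% of all genes, with a median of 0.70 against 0.041 over all genes, and 0.19 with the length offset. By edgeR 0 members and 0.0% of all genes passed, and limma voom likewise called 0. Of the 66 members besides Kmt2a and Tet3, 28 stood at an unadjusted p under 0.05 (17.9% of all genes) and DESeq2 listed 10 as higher (1.56% of all genes). The set was chosen with this gap known for the pair, and nothing is read from these counts. The median gap climbed with length, from -0.18 for the 5 members under 2000 bases to 1.31 for the 21 over 8000 bases, where the 658 genes of that length among all tested had 0.99. With the offset the median of the 21 was 0.36. Tet3, at 1.01 (SE 0.29), Setd1b, at 1.10 (SE 0.39), and Kmt2a, at 0.80 (SE 0.25), were still among the higher values then.

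The partners of these enzymes give a wider view. A further 140 chromatin genes were taken in 8 lists which, unlike the set, were not limited to autosomes. Of these genes, 133 were tested and 0 were called by edgeR in any comparison. DESeq2 called 1 higher and 1 lower in Atg7KO tumours (1.85% and 2.42% of all genes). In DKO tumours it called 16 higher and 1 lower (4.33% and 3.68%). Between genotypes it called 4 lower in non-tumour liver (0.81%), and 2 higher and 2 lower in tumours (1.91% and 1.95%). For the gap between genotypes it called 12 higher and 1 lower (1.56% and 1.74%). The medians of the 133 genes were -0.13 in Atg7KO tumours, 0.21 in DKO tumours, -0.25 between genotypes in non-tumour liver and 0.12 in tumours. The offset left -0.046, 0.035, -0.075 and 0.0056 in the same order. The 14 acetyltransferases and bromodomain readers outside the set came nearest to the members, with 14 of 14 above 0 in DKO tumours (median 0.57), and they too are long, with a median of 6819.5 bases.

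The 14 genes listed as COMPASS partners, which include subunits that Kmt2a and its relatives share, gave smaller values than the members. With a median length of 3569.5 bases, they had medians of -0.17 in Atg7KO tumours and -0.0082 in DKO tumours. Among them Ncoa6, the long subunit of the Kmt2c and Kmt2d complexes, stood at 22.0, 26.0 and 31.2 CPM in Atg7KO tumours against 57.5, 40.4 and 34.9 CPM in DKO tumours, with a gap between genotypes of 1.43 (SE 0.38), which was 0.78 with the offset. Trrap, the scaffold of the KAT5 and KAT2 complexes, had a gap of 1.76 (SE 0.36), which the offset left at 0.67. In 4 other lists, the gaps of the genes with the lowest p were 1.225 for Jarid2 (Polycomb), 1.30 for Ep400 (a remodeller of the KAT5 complex), 1.305 for Nsd1 (a histone H3 lysine 36 methyltransferase) and 1.625 for Gltscr1 (SWI/SNF). In the same order the offset left 0.62, 0.30, 0.19 and 1.14. The Polycomb genes, 26 of 26 tested, had medians of -0.10 and 0.16, and the 17 deacetylase and sirtuin genes -0.15 and 0.042. The 13 tested DNA methylation genes had medians of 0.035 and 0.42. Dnmt1, the maintenance methyltransferase, stood at 17.3, 13.5 and 20.7 CPM in DKO non-tumour liver and 30.2, 27.2 and 26.6 CPM in DKO tumours, without overlap. Its log2 difference was 0.71 (SE 0.20) in DKO and -0.095 (SE 0.20) in Atg7KO, and the offset left 0.30 and 0.074.

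Markers of other liver cells varied between libraries as well. Atg7KO tumour replicate 2 had the highest summed cholangiocyte level, 6470 CPM over 5 genes against at most 1170 CPM in any Atg7KO non-tumour library, and the lowest hepatocyte level, 22700 CPM. Stellate cell genes (6) summed to 478 to 923 CPM in Atg7KO non-tumour liver and 270 to 331 CPM in its tumours, and to 404 to 671 and 346 to 725 CPM in DKO. Macrophage genes (5) summed to 541 to 815 and 219 to 960 CPM in Atg7KO, and to 681 to 762 and 410 to 558 CPM in DKO. Endothelial genes (5) summed to 191 to 234 and 181 to 216 CPM, and to 159 to 185 and 165 to 171 CPM. T cell (4 of 5 in the table), B cell (4) and neutrophil (4) genes reached at most 32.1, 38.2 and 318 CPM, and no marker was at 0 in a library. The part of these cells in the members' differences was not tested.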

How the data were processed

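The deposited table holds raw counts (reads per gene), the length of each gene and its position on mm10. STAR 2.5.3a, Subread 1.5.3 with featureCounts, bcl2fastq and edgeR 3.20.8 are named, for mm10, per the submitters' processing notes. Strand setting, annotation release and library kit are not given in the sources used here, so reads of overlapping antisense genes can be mixed, and Smarca5-ps can share reads with Smarca5.

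Of 24421 genes, 4509 of them without a read, 14443 passed filterByExpr (at least 10 reads, 15 in total). One edgeR 4.0.16 model of the 4 groups over the 12 libraries, TMM-scaled, gave robust two-sided quasi-likelihood F tests (R 4.3.3). P-values were adjusted by Benjamini-Hochberg over all genes tested, with calls under 0.05. SE is the fold change divided by the root of F. The length offset is a lowess curve (span 0.3) of each library's log2 CPM deviation (prior count 2) on log2 length. Groups were said not to overlap when all 3 libraries of one lay beyond all 3 of the other, and an exact permutation test of 3 against 3 cannot go below 0.1, so none was run. DESeq2 1.42.0, limma 3.58.1 and the settings of the closing section were run beside it. The steps were tested on simulated data. CG was counted with python 3.11.15 and figures drawn with matplotlib 3.10.9.

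The members and gene lists were chosen with earlier results of these data known. Named were the Kmt2 and Tet genes, the members with the 5 highest and 5 lowest fold changes per comparison, the most abundant per role, and per further list the gene with the lowest p in the difference between genotypes, 1 of which is not reported here. Other members were named after their values were seen. Listed genes absent under the name used were Nsd2, Nsd3, Kmt5b, Kmt5c, Bicra, Bicral and Trac. Nothing says that libraries are separate animals, so p-values reflect the spread of these libraries alone, which may be technical. The highest Spearman correlation between libraries was 0.9858.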

Additional observations from a re-analysis of the deposited data

Results flagged for a closer look

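In 14 members every tumour lay below the non-tumour libraries in Atg7KO and above them in DKO, where 1.34% of all genes did. This is the opposite course that was known for 2 of the 14 when the set was drawn up. Nothing is read from a test of that difference for this reason, and none is given for Kmt2a and Tet3. The 14 are named for their lack of overlap in that same contrast, so calls among them are not counted. Their log2 fold changes in DKO tumours were 1.33 for Kmt2a, 1.22 for Tet3, 0.829 for Setd2, 0.743 for Kmt2b, 0.726 for Kmt2c, 0.682 for Chd6, 0.663 for Kdm2a, 0.655 for Chd2, 0.608 for Arid2, 0.601 for Kdm6b, 0.578 for Kat6b, 0.574 for Arid1a, 0.521 for Kmt2e and 0.322 for Arid4a. Under the length offset Tet3 alone among the members kept the course, and 0.242% of all genes had it.

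Kdm5d, the Y-linked demethylase of histone H3 lysine 4, was left out of the set but had reads in every DKO library: 284, 177 and 420 in non-tumour liver and 605, 370 and 405 in tumours. No Atg7KO library held more than 2.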

How the results depend on the processing

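Members called at an adjusted p under 0.05, 0 by edgeR in each comparison, stayed at 0 with RLE factors, no filter, the length offset, each comparison's 6 libraries alone and the replicate block. DESeq2 called 1 lower for tumours in Atg7KO (2.42% of all genes) and 11 higher for tumours in DKO (4.33%). It called 7 lower between genotypes in non-tumour liver (0.81%) and 12 higher for the difference between genotypes (1.56%). Limma voom called 10 lower in non-tumour liver (1.54% of all genes). Leaving out 1 library gave 0 to 3 in DKO tumours, with 3 in the fit without DKO non-tumour replicate 3, and 0 elsewhere. Over all genes that fit called 297 higher and 300 lower in DKO tumours, where the fit of all libraries called 0. The counts of members are over all 68, without setting Kmt2a and Tet3 aside. The set was chosen with values of that pair known, so nothing is read from these counts for either gene or for the set. The causes were not tested.

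The median member fold change moved with the length offset to 0.0926 in DKO tumours, -0.0919 between genotypes in non-tumour liver, 0.0852 in tumours and 0.191 for their difference, and with the replicate block and offset together to 0.0927, -0.0908, 0.085 and 0.204. Its sign was the same in every setting run. Leaving out 1 library gave -0.37 to -0.206 in Atg7KO tumours, 0.402 to 0.667 in DKO tumours, -0.51 to -0.295 in non-tumour liver, 0.19 to 0.399 in tumours and 0.608 to 0.846 for the difference.

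Of single values, 7 with a test passed the threshold and 7 reversed; 70 without one moved by more than the spread between replicates. Reversed under the offset, and under the replicate block with it, were Setd6 in non-tumour liver (-0.0552 and -0.0544), and in tumours Kmt2d (-0.443 and -0.435) and Tet2 (-0.273 and -0.293). In limma voom Kmt2d in tumours was -0.0145. Among values without a test, Kmt2c (-0.129 and -0.126) and Tet2 (-0.167 and -0.162) in DKO tumours, and Setd6 (0.184 and 0.197) in the difference between genotypes, changed sign in the same way, as did Setd4 under the offset (0.0625) and Arid5a in limma voom (0.25) in that difference. Leaving out 1 library turned Arid5a there in 4 cases, up to 0.0769, and Setd4 in 4, up to 0.111.

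Tumour and non-tumour libraries share a number in the labels, which is not stated to be an animal. Deviations of same-numbered libraries correlated at 0.016, 0.056 and 0.311 in Atg7KO and 0.0744, 0.332 and 0.0242 in DKO over genes, and not every library correlated best with its own number. With the replicate block 0 members were called. Depth limits Tet1, Chd5 and Smarcd3 most.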

Other observations

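Of the X-linked relatives left out of the set, Kdm5c and Kdm6a also differed between genotypes. That difference cannot be told apart from the split of Xist and Y-linked reads between the genotypes. Kdm5c, a demethylase of histone H3 lysine 4 that escapes X inactivation, stood at 90.2, 111 and 107 CPM in Atg7KO non-tumour liver and 86.2, 80.6 and 108 CPM in Atg7KO tumours. In DKO it stood at 59.6, 41.0 and 55.8 CPM in non-tumour liver and 79.5, 67.1 and 61.5 CPM in tumours. Every DKO library was below every Atg7KO library. Kdm6a, which erases the Polycomb mark and also escapes, stood at 21.6, 29.4 and 28.6, at 20.0, 22.5 and 30.3, at 11.8, 12.8 and 17.3 and at 24.7, 20.2 and 16.9 CPM in the same order. Its genotypes did not overlap in non-tumour liver and overlapped in tumours. Smarca1 had at most 5 reads in any library.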
